A study of Mus musculus with 20 samples.

Results

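The genes described here are the 9 mouse genes of DNA methylation writers, readers and erasers: the de novo methyltransferases Dnmt3a and Dnmt3b, the maintenance pair Dnmt1 and Uhrf1, the erasers Tet1, Tet2, Tet3 and Tdg, and the reader Mbd2. They were chosen by symbol, and all 9 were found among the 17101 genes of the normalized table. RNA was measured in sorted splenic donor T cells on day 10 after a haploidentical blood and marrow transplantation, in which cells of C57BL/6J (B6) background were given to irradiated B6D2F1 (F1) recipients. KO donors carried 2 floxed copies of Dnmt3a and a Cre recombinase driven by the Cd4 promoter, WT donors were their littermates, donors were 6 to 12 weeks old and recipients 8 to 12 weeks old. There were 4 libraries in each of 5 groups, KO CD4+, KO CD8+, KO CD4+CD8+ double positive (DP), WT CD4+ and WT CD8+. DP cells of WT donors are not described. The labels number the KO libraries 1 to 4 and the WT libraries 2, 3, 5 and 6, and a number within a genotype is called an animal below.

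Cytosine methylation at CpG sites is set on unmethylated DNA by DNMT3A and DNMT3B. It is copied after replication by DNMT1, which UHRF1 brings to hemimethylated sites. TET1, TET2 and TET3 oxidize the methyl mark, the glycosylase TDG excises the oxidized bases so that base excision repair can restore cytosine, and MBD2 binds methylated CpGs and recruits the NuRD histone deacetylase complex. Because Cre acts under Cd4 control, deletion occurs in the thymus, before the CD4+ and CD8+ lineages part.

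The libraries held 37547651 to 46966318 reads on genes. Reads were found on 14421 to 14677 genes in WT and on 13203 to 14198 genes in KO libraries, except for KO DP animal 3, which had reads on 11783 genes. That library stood apart from the others, and comparisons that it moves are given with and without it. The T cell markers were present in every group, and CD4+ and CD8+ markers were highest in their own gates. KO CD4+ animal 1 had a summed CD8+ marker level of 16122, against 7378 to 8255 in the other KO CD4+ libraries and 7170 to 8188 in WT CD4+ libraries. Without it the same number of members, 4, passed between KO and WT CD4+ cells, and Dnmt1 and Uhrf1, for which animal 1 was also low in its CD8+ and DP libraries, were at -0.15 and -0.13. Of the 6 B cell markers, Cd79b was higher in KO cells, at 581 to 1073 against 40.1 to 82.6 in CD4+ and 1413 to 2245 against 147 to 245 in CD8+ cells. Cd79a was also higher in KO CD4+ cells, at 48.8 to 90.1 against 1.94 to 13.4, and at 12.3 to 35.0 against 9.88 to 21.1 in CD8+ cells, while Ms4a1 stayed at or below 4.39 in every library. The summed level of 7 myeloid markers was 751 to 2979 in KO CD4+ against 2353 to 3192 in WT CD4+ libraries, and 1589 to 4548 against 2673 to 5008 in CD8+ cells. The part of these cells in the results below was not tested. In bulk samples, fewer cells of a type and less RNA per cell cannot be told apart.

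**Figure D1:**
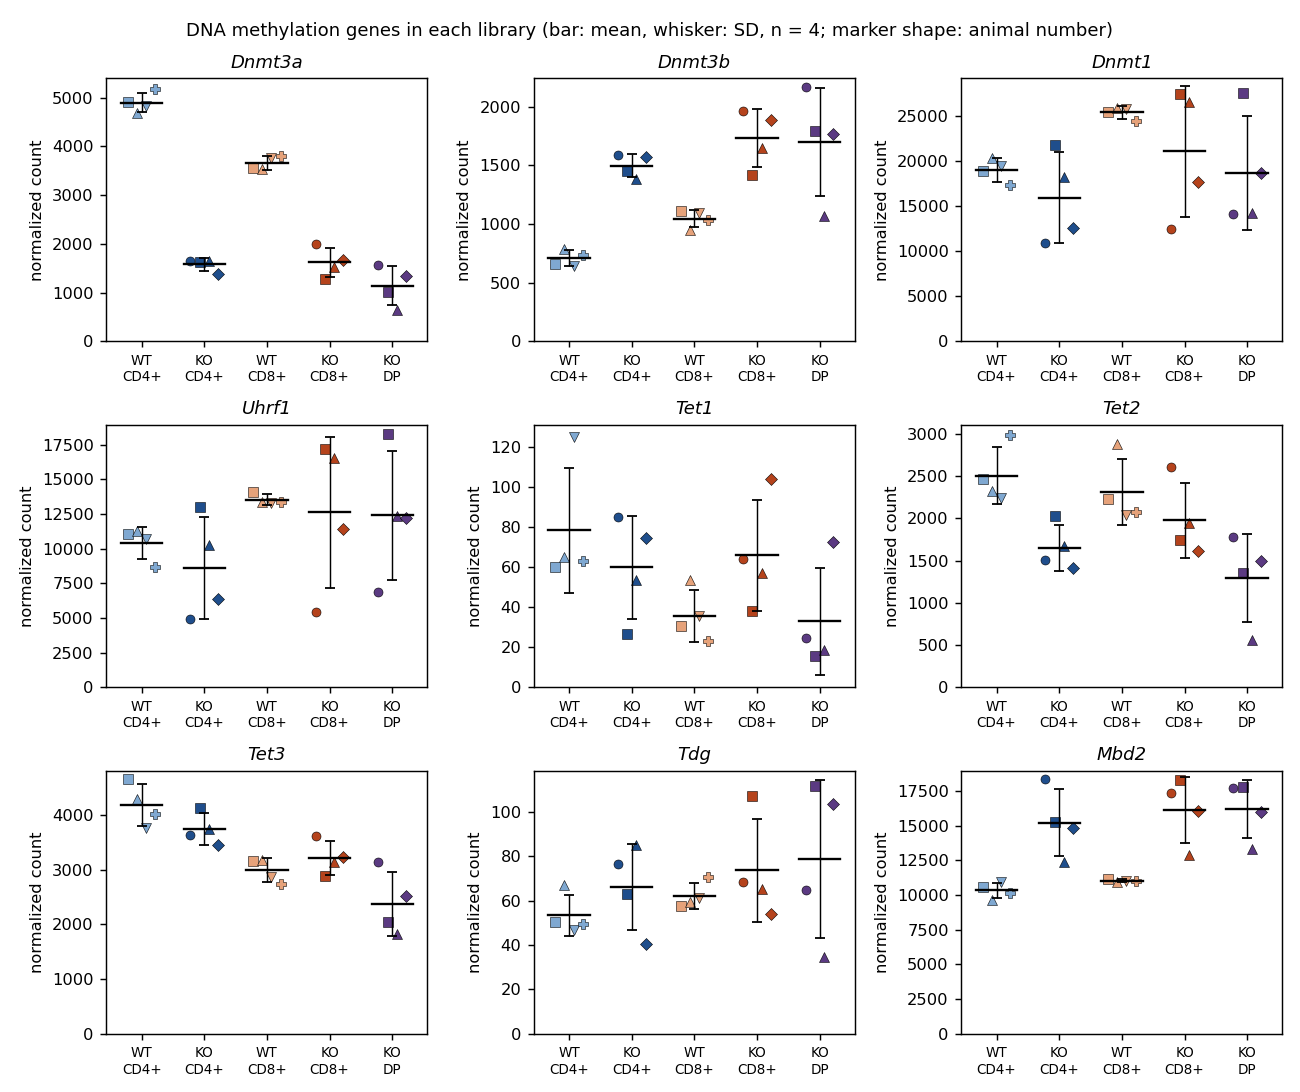
Normalized counts of the 9 genes in each library, grouped on the horizontal axis by genotype and subset. Points are libraries, marker shapes are animal numbers, and bars and whiskers give mean and SD of 4 libraries. Dnmt3a lies between 650.4 and 2007 in KO libraries and between 3542 and 5171 in WT libraries, and Dnmt1 and Uhrf1 spread widely in the KO groups.

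Levels between genes were compared as normalized counts per kilobase of exon. In WT CD4+ cells the reader Mbd2 had the highest level, at 4398 ± 232 per kb (mean ± SD, n = 4 here and below), followed by Dnmt1 at 3012 ± 204 and Uhrf1 at 2852 ± 324. Dnmt3a, at 493 ± 20.2 per kb, exceeded Tet3 at 357 ± 32.9, Tet2 at 272 ± 36.3 and Dnmt3b at 163 ± 15.7. Tdg, at 15.1 ± 2.62 per kb, and Tet1, at 5.47 ± 2.18, had the lowest counted levels of the 9. The place of Tdg is uncertain, since its transcripts share most of their sequence with pseudogenes, as given below. The maintenance genes and the reader were thus well above the de novo enzymes and the TET genes per kilobase.

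The main question was how the family differs between KO and WT cells of the same subset. In CD4+ cells 4 of the 9 genes passed the threshold (limma on the log2 scale, adjusted p under 0.05), where 18.4% of the 12391 genes tested did so. Dnmt3b and Mbd2 were higher in KO cells, as were 8.59% of genes, and Dnmt3a and Tet2 lower, as were 9.77%. These were the 4 members whose libraries did not overlap, which held for 25.6% of all genes. In CD8+ cells 3 of the 9 passed, against a background of 25.2% of 12383 genes. They were Dnmt3b and Mbd2, higher (12.6% of genes), and Dnmt3a, lower (12.5%), and these 3 had no overlap between libraries, against 30.6% of all genes. With 1 library left out, 628 to 2963 genes were called in CD4+ cells. For CD8+ cells the range was 1633 to 4092. The median difference of the 9 genes was -0.31 in CD4+ and 0.10 in CD8+ cells, where that of all genes was -0.05 and -0.04. Counts of calls depend on the scale: with libraries scaled to a common 75th percentile the median of all genes moved to -0.16 in both subsets, and 475 of 2626 genes called in CD4+ cells were higher in KO, against 1064 of 2274 as reported (689 of 2949 against 1566 of 3118 in CD8+ cells). The member calls named here kept their direction and their call on that scale.

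**Figure D2:**
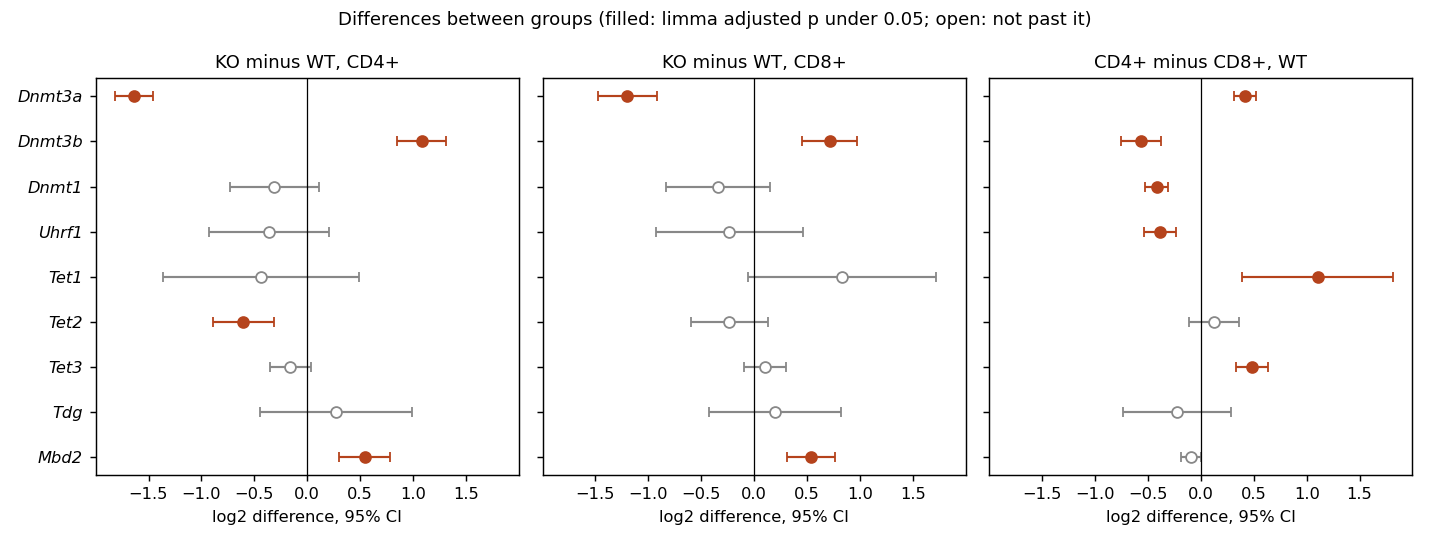
Log2 differences with 95% confidence intervals for the 9 genes: KO minus WT in CD4+ cells (left) and CD8+ cells (middle), and CD4+ minus CD8+ in WT cells (right). Filled points passed a limma adjusted p of 0.05. Dnmt3a lies below 0 and Dnmt3b and Mbd2 above 0 in both KO comparisons, and Tet1 has the widest interval in each panel.

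Dnmt3a, the targeted de novo methyltransferase (chromosome 12, 3801559 to 3914443, GRCm38.p6), was lower in every KO library. In CD4+ cells it was at 1658, 1628, 1639.6 and 1385 normalized counts in KO animals 1 to 4, against 4906, 4690.0, 4839 and 5171 in WT animals 2, 3, 5 and 6. In CD8+ cells the KO libraries were at 2007, 1287, 1515 and 1664 and the WT libraries at 3549, 3542, 3756 and 3812. The highest KO library was below the lowest WT library in both subsets. The KO level was 32.1% of WT in CD4+ cells (log2 difference -1.64, SE 0.08, limma adjusted p = 1.26e-05). For CD8+ cells it was 43.6% (-1.20, SE 0.12, limma adjusted p = 0.000654). Reads therefore remained in all 12 KO libraries, including KO DP at 1571, 1021, 650.4 and 1332. The table gives 1 value per gene and the floxed allele removes part of it, so transcripts that lack the deleted part and cells without recombination cannot be told apart. The antisense gene Dnmt3aos, counted by strand, did not exceed 23.0 in any library.

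Among WT cells Dnmt3a was the higher in the CD4+ subset, in 4 of 4 animals. The WT groups did not overlap, with a log2 difference between CD4+ and CD8+ of 0.42 (SE 0.05, limma adjusted p = 1.31e-05). This ordering was not seen in KO cells, where the CD4+ library was below the CD8+ library in 2 of 4 animals (log2 difference -0.02, SE 0.14, limma adjusted p = 0.969). The fall from WT to KO was larger in CD4+ cells by 0.44 on the log2 scale (SE 0.15, unadjusted p = 0.00896), but the test of this difference over all genes gave a limma adjusted p = 0.562 and did not pass.

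Dnmt3b, the other de novo enzyme (chromosome 2, 153649411 to 153687730), moved the opposite way. CD4+ cells had 1586, 1449, 1384 and 1569 normalized counts in KO against 661, 787, 641 and 738 in WT. In CD8+ cells the levels were 1965, 1418, 1649 and 1886 in KO and 1106, 948, 1093 and 1034 in WT. Every KO CD4+ and CD8+ library exceeded every WT library of either subset. Dnmt3b was 2.12-fold higher in KO CD4+ cells (log2 difference 1.08, SE 0.10, limma adjusted p = 0.000594) and 1.64-fold higher in KO CD8+ cells (0.72, SE 0.12, limma adjusted p = 0.00371). The order of groups, from the highest mean, was KO CD8+ (1729 ± 247), KO DP (1697 ± 459), KO CD4+ (1497 ± 97.1), WT CD8+ (1045 ± 72.0) and WT CD4+ (707 ± 67.9), and only the 3 KO groups overlapped their neighbours in this order. Without KO DP animal 3 the DP mean was 1908 ± 221 (n = 3) and the highest of the 5. KO DP libraries were at 2163, 1791, 1065 and 1769.9, and animal 3 alone lay within the WT CD8+ range. The difference between subsets in the KO effect had an unadjusted p = 0.0270 and a limma adjusted p = 0.693.

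Because Dnmt3b is the writer that rose, the stretch before its annotated starts is shown, with CpG dinucleotides, the sites these enzymes act on, in capitals. It is RefSeq sequence of chr2:153649199-153649410, plus strand, GRCm38.p6, lies before the first exon, and holds 16 CpGs in 212 bases.
Dnmt3b: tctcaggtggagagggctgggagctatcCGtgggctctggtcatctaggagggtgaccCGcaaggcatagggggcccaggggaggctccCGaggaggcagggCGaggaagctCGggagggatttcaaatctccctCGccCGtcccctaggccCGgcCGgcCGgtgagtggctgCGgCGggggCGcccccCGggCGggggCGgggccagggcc
The 300-base window around the Dnmt3b start holds 30 CpGs, where the median over 32851 RefSeq start windows is 7. Of the other members, the Dnmt3a windows hold 46, 47 and 18 and the Tet2 window 57. Methylation of these windows was not measured in the data used here.

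**Figure D3:**
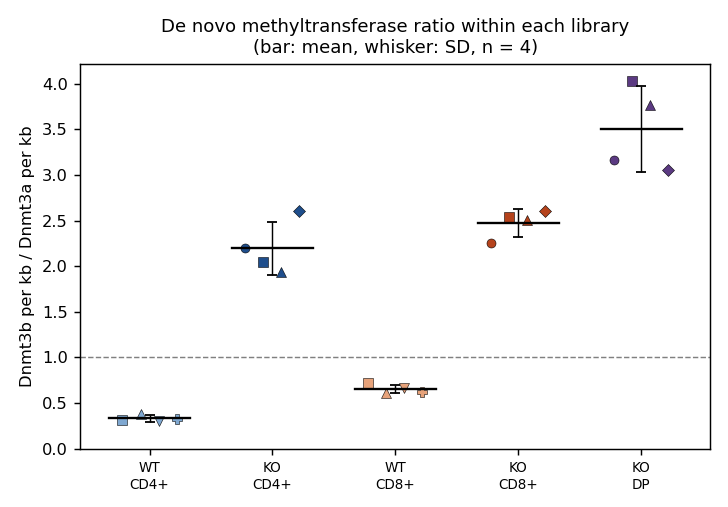
Ratio of Dnmt3b to Dnmt3a, both per kilobase of exon, within each library. Points are libraries, bars and whiskers are mean and SD of 4, and the dashed line marks equal levels. All WT libraries lie between 0.305 and 0.717 and all KO libraries between 1.94 and 4.03.

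The ratio of the de novo enzymes within a library does not depend on how libraries are scaled. Per kilobase, Dnmt3b was at 0.310, 0.386, 0.305 and 0.328 of Dnmt3a in WT CD4+ cells and at 0.717, 0.615, 0.669 and 0.623 in WT CD8+ cells. In KO cells the ratio was 2.20, 2.05, 1.94 and 2.61 in CD4+, 2.25, 2.53, 2.50 and 2.60 in CD8+, and 3.17, 4.03, 3.76 and 3.06 in DP libraries. On this per-kilobase scale Dnmt3a was thus the more abundant of the pair in all 8 WT libraries and Dnmt3b in all 12 KO libraries. The KO order depends on the exon lengths. In normalized counts Dnmt3a exceeded Dnmt3b in KO CD4+ animals 1, 2 and 3 (1658, 1628 and 1639.6 against 1586, 1449 and 1384). The same held in KO CD8+ animal 1 (2007 against 1965), and Dnmt3b was the higher in the other KO libraries. The ratio was 6.61-fold higher in KO than WT in CD4+ and 3.77-fold higher in CD8+ cells. Both the deletion of Dnmt3a and the rise of Dnmt3b enter this ratio. Its separation between genotypes follows from theirs, and a p-value for it would not be separate evidence. Its exon lengths count all annotated exons, the deleted part of Dnmt3a included.

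Dnmt1, the maintenance methyltransferase (chromosome 9, 20907206 to 20959888), and Uhrf1, the factor that brings it to replicated DNA (chromosome 17, 56303337 to 56323486), did not pass the test between KO and WT cells. Their KO libraries were more widely spread than their WT libraries. This was not particular to the pair: for Mbd2 in CD8+ cells the SD was 14.7% of the mean in KO and 0.949% in WT. Only Dnmt3b and Tet3 in CD4+ cells went the other way (6.48% against 9.61% and 7.69% against 9.22%). Dnmt1 was at 10954, 21879, 18314 and 12640.1 normalized counts in KO CD4+ and at 12529, 27546, 26657 and 17701 in KO CD8+ animals 1 to 4. In WT cells it was at 18978, 20372, 19528 and 17321 in CD4+ and at 25522, 25985, 25798 and 24458 in CD8+ animals 2, 3, 5 and 6. The KO libraries lay on both sides of the WT range. The log2 difference between KO and WT was -0.31 (95% CI -0.73 to 0.11, limma adjusted p = 0.260) in CD4+ and -0.34 (-0.83 to 0.15, limma adjusted p = 0.279) in CD8+ cells. Without KO CD4+ animal 2, the highest, the CD4+ difference passed (limma adjusted p = 0.0464).

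Uhrf1 was at 4943, 13004, 10276 and 6354 in KO CD4+, at 5432, 17183, 16509 and 11426 in KO CD8+ and at 6863, 18276, 12328 and 12187 in KO DP animals 1 to 4. WT CD4+ libraries were at 11030.4, 11264, 10678 and 8677 and WT CD8+ libraries at 14103, 13396, 13267 and 13388. In all 3 KO subsets animal 1 was the lowest and animal 2 the highest for both Uhrf1 and Dnmt1, and the highest library was 2.63, 3.16 and 2.66 times the lowest for Uhrf1 in CD4+, CD8+ and DP cells and 2.00, 2.20 and 1.95 times for Dnmt1. Within the WT groups these ratios were at most 1.3. The log2 difference of Uhrf1 between KO and WT was -0.36 (95% CI -0.93 to 0.20, limma adjusted p = 0.326) in CD4+ and -0.23 (-0.93 to 0.46, limma adjusted p = 0.602) in CD8+ cells.

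A list of DNA replication genes moved with these animals. The summed level of the 19 replication genes in the table was 87504 in KO CD4+ animal 1 and 181602 in animal 2, 94776 and 226508 in KO CD8+, and 109919 and 263512 in KO DP cells, with WT CD4+ libraries at 128011 to 160849 and WT CD8+ libraries at 193688 to 199926. Animal 1 was again the lowest and animal 2 the highest in all 3 KO subsets, and the same held for the sum of 15 mitosis genes. After the group means were removed, log2 Uhrf1 and the replication sum had a Pearson correlation of 0.981 over 20 libraries, and Dnmt1 one of 0.890, which was 0.990 over the 19 libraries without KO DP animal 3. In that library Dnmt1 was at 14304 beside a replication sum of 216884, where KO CD8+ animal 3 had 26657 beside a sum of 223874. Dnmt1 and Uhrf1 themselves correlated at 0.936 with group means removed, or 0.981 without that library. These correlations describe libraries that share animals and scaling factors. The ratio of Uhrf1 to Dnmt1 in normalized counts within a library ranged from 0.434 to 0.862 and gave an exact permutation p = 0.657 between KO and WT CD4+ and 0.571 between KO and WT CD8+ cells, 2-sided.

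**Figure D4:**
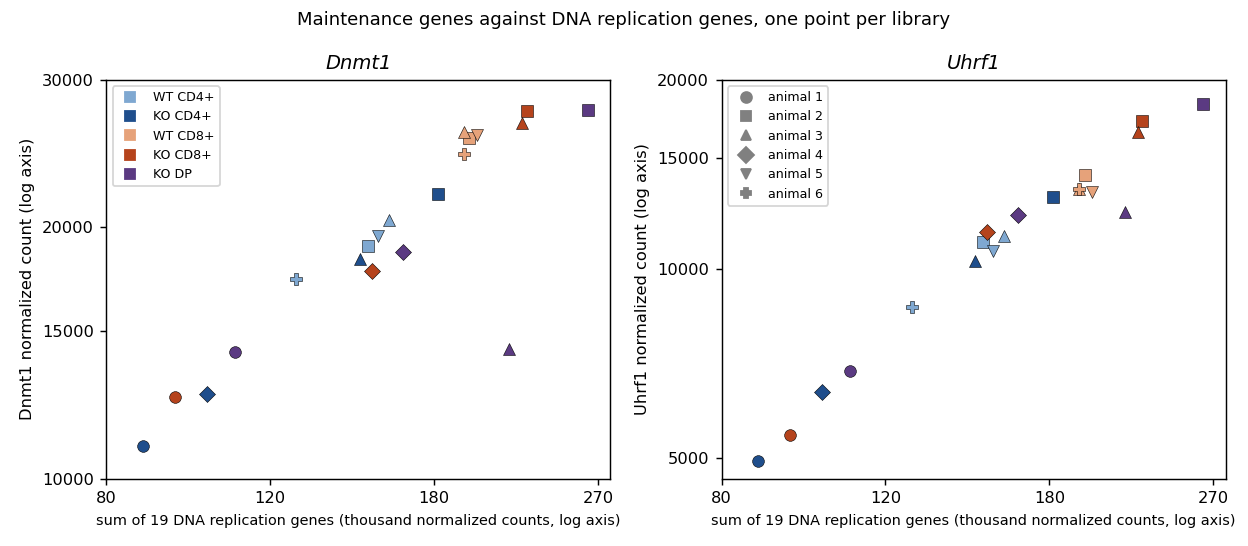
Dnmt1 (left) and Uhrf1 (right) against the summed level of 19 DNA replication genes, 1 point per library, both axes logarithmic. Colors are groups and marker shapes are animal numbers. In each KO subset animal 1 lies at the lower left and animal 2 at the upper right. For Dnmt1, KO DP animal 3 lies below the points with a similar replication sum.

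Replication genes are commonly driven by E2F factors, so the RefSeq start windows of the members, 250 bases before to 50 after each start, were searched on both strands for the words TTTCCCGC, TTTCGCGC, TTTGCCGC and TTTGGCGC. Mbd2 was left out, and 13 windows of the other members were used. A word was found in 2 of the 13, 1 of Dnmt1 and 1 of Uhrf1. None was found in the windows of Dnmt3a, Dnmt3b, Tet1, Tet2, Tet3 and Tdg. Over all 32851 windows 2.26% held a word. Counted by gene rather than by window, 6 of the 16 replication genes with a window had one. Each word contains a CpG, and the Dnmt1 and Uhrf1 windows with a word hold 33 CpGs each, where the median window holds 7. The share among windows equally rich in CpGs was not computed. Both sites are shown with the word in capitals and flanking bases in lower case, from RefSeq on GRCm38.p6. The Dnmt1 site is chr9:20952824-20952853, minus strand, in the 5′ UTR of the first exon of the transcripts that start farther upstream, and is read 219 bases before the start of a shorter transcript. The Uhrf1 stretch is chr17:56304063-56304244, plus strand, in the first intron of the longer transcripts, with the word 185 bases before the start of a shorter one.
Dnmt1: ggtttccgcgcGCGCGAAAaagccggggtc
Uhrf1: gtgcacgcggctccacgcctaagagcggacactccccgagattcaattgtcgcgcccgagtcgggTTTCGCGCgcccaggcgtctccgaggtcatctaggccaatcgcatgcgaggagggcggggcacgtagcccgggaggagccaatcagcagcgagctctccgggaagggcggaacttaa
In Dnmt1 the capitals are the reverse complement of TTTCGCGC, and TTTGGCGC lies 33 bases after the same start. A match in these letters is a description of the window and not of binding, and regulation of these genes by E2F factors was not tested.

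Among the erasers, Tet2 (chromosome 3, 133463677 to 133545136), a dioxygenase active in mature T cells, was lower in KO CD4+ cells. The KO libraries were at 1504, 2024, 1673 and 1409 normalized counts and the WT libraries at 2463, 2321, 2242 and 2985. No KO library reached the lowest WT library. The level in KO was 65.8% of WT (log2 difference -0.60, SE 0.13, limma adjusted p = 0.0149). This call was lost without WT CD4+ animal 6 (limma adjusted p = 0.0518), with DESeq2 (adjusted p = 0.0888) and in a joint limma fit of all 20 libraries (adjusted p = 0.136).

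In CD8+ cells Tet2 was at 2612, 1741, 1941 and 1610.0 in KO and 2231, 2882, 2044 and 2072 in WT libraries, and the groups overlapped (log2 difference -0.23, 95% CI -0.60 to 0.13, limma adjusted p = 0.312). The difference between the subsets was -0.37 with a limma adjusted p = 0.929. Within a library, the ratio of Tet2 to Tet3 in normalized counts was 0.407 to 0.489 in KO CD4+ and 0.528 to 0.743 in WT CD4+ libraries (2-sided exact permutation p = 0.0286). In CD8+ cells it was 0.498 to 0.721 against 0.704 to 0.904, where the groups overlapped (p = 0.0857, exact permutation test). With 4 libraries per group 0.0286 is the smallest p this test can give, and both values are unadjusted. Tet2 itself enters this ratio, so its separation in CD4+ cells is not independent of the Tet2 difference given above. KO DP libraries were at 1776, 1358, 556 and 1493 for Tet2, and animal 3 was the lowest.

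Tet3 (chromosome 6, 83362373 to 83457208), the TET gene with the highest mean per kilobase in all 5 groups, differed between the WT subsets. In WT CD8+ cells its mean of 255 ± 18.7 per kb lay within the spread of Tet2, at 251 ± 42.6. WT CD4+ cells had 4668, 4301, 3768 and 4019 normalized counts and WT CD8+ cells 3168, 3189, 2877 and 2743. The WT subsets did not overlap, and Tet3 was higher in CD4+ cells by 0.48 on the log2 scale (SE 0.07, limma adjusted p = 0.000104). KO CD4+ libraries were at 3629, 4139.7, 3757 and 3463 and KO CD8+ libraries at 3621, 2881, 3135 and 3230.5, and neither differed from WT past the threshold (limma adjusted p = 0.215 and 0.415). KO DP cells had 3139.8, 2040.2, 1818 and 2526, the lowest mean of the 5 groups (2381 ± 586, or 2569 ± 551 without animal 3, still the lowest) and below every KO CD4+ library.

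Tet1 (chromosome 10, 62804570 to 62887469), best known from pluripotent cells, was scarce, at 15.7 to 125 normalized counts. WT CD4+ libraries held 60.2, 65.1, 125 and 63.4 and WT CD8+ libraries 30.5, 53.7, 35.9 and 23.2. All WT CD4+ libraries were above all WT CD8+ libraries, by 2.15-fold (log2 difference 1.10, SE 0.33, limma adjusted p = 0.0150), and the call was lost without WT CD4+ animal 5, the highest (limma adjusted p = 0.0558). In KO cells Tet1 was at 85.1, 26.5, 53.5 and 74.7 in CD4+ and 64.2, 38.1, 57.2 and 104 in CD8+ libraries. Against WT the log2 difference was -0.44 (95% CI -1.36 to 0.49, limma adjusted p = 0.471) in CD4+ and 0.84 (-0.05 to 1.72, limma adjusted p = 0.148) in CD8+ cells. The CD8+ value passed the threshold under quantile normalization (1.25, limma adjusted p = 0.0350), and the difference between subsets had an unadjusted p = 0.0440 and a limma adjusted p = 0.758.

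Tdg (chromosome 10, 82629814 to 82650799), the glycosylase that removes TET products, was counted at 34.8 to 112 across all libraries. The KO means were 66.2 ± 19.4 in CD4+ and 73.7 ± 23.1 in CD8+ cells, against 53.3 ± 9.21 and 62.2 ± 5.71 in WT. Groups overlapped in both subsets, with log2 differences of 0.27 (95% CI -0.45 to 0.99) and 0.20 (-0.43 to 0.83) and limma adjusted p of 0.567 and 0.623. Its counts are uncertain, since 67.1% of the 47-base words of its RefSeq transcripts, the read length of the study, are also found in the annotated pseudogenes Tdg-ps and Tdg-ps2, neither of which is a row of the table.

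Mbd2, the methyl-CpG reader, was higher in KO cells of both subsets. KO CD4+ libraries were at 18329, 15282, 12414 and 14843 normalized counts and WT CD4+ libraries at 10589, 9668, 10928 and 10155. KO CD8+ libraries were at 17330.1, 18315, 12876 and 16026 and WT CD8+ libraries at 11154, 10906, 10975 and 11021. The lowest KO CD4+ or CD8+ library was above the highest WT library. Mbd2 was 1.46-fold higher in CD4+ (log2 difference 0.55, SE 0.11, limma adjusted p = 0.0113) and 1.45-fold higher in CD8+ cells (0.54, SE 0.10, limma adjusted p = 0.00669), and the 2 effects differed by 0.01 (95% CI -0.32 to 0.34). KO DP libraries, at 17724, 17811, 13293 and 15980.1, overlapped both other KO groups, and animal 3 was the lowest in each KO subset.

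Between CD4+ and CD8+ cells of WT animals 6 of the 9 genes passed, where 44.5% of 12559 genes did. Dnmt3a, Tet1 and Tet3 were higher in CD4+ cells, beside 22.3% of all genes, and Dnmt3b, Dnmt1 and Uhrf1 were lower, beside 22.2%. The same 6 had no overlap between libraries, against 41.8% of all genes. With the animal as a block all 6 passed again, where 48.8% of genes did and 24.5% were lower in CD4+ cells. Dnmt1 was lower in CD4+ than CD8+ cells in 4 of 4 WT animals (log2 difference -0.42, SE 0.05, limma adjusted p = 2.24e-05), as was Uhrf1 (-0.39, SE 0.07, limma adjusted p = 0.000596) and Dnmt3b (-0.57, SE 0.09, limma adjusted p = 0.000149). The replication and mitosis lists moved in the same direction, with 18 of 19 and 15 of 15 genes lower in CD4+ cells. When the spread was estimated over all 20 libraries, with DESeq2 or in a joint limma fit, 2 of the 6 member calls were left, those of Dnmt3b and Tet3, and DESeq2 called 2 of the 19 replication and 0 of the 15 mitosis genes. With limma 18 and 15 passed at an unadjusted p under 0.05.

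In KO cells none of the 9 genes passed between CD4+ and CD8+ cells (limma, 4.22% of 12189 genes called, 2.73% higher and 1.48% lower in CD4+ cells, and 10.1% without overlap), with 1 at an unadjusted p under 0.05 and none by edgeR or DESeq2. The 514 genes called became 233 to 486 with 1 library left out. Libraries of the same number were correlated within a genotype. With the animal as a block, Dnmt1 and Uhrf1 passed, at log2 differences of -0.39 (limma adjusted p = 0.00440) and -0.52 (limma adjusted p = 0.00804), where 18.9% of genes passed in that fit and 8.68% were lower in CD4+ cells. Both were lower in CD4+ than CD8+ cells in 4 of 4 KO animals, with log2 differences within an animal of -0.54 to -0.19 for Dnmt1 and -0.85 to -0.14 for Uhrf1. Dnmt1 and Uhrf1 were thus lower in CD4+ cells within each animal of both genotypes.

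KO DP cells were compared with both single positive KO subsets. Against CD8+ cells none of the members passed in limma, where 0.00823% of 12153 genes did and 2.7% had no overlap, with 1 at an unadjusted p under 0.05 (Tet3) and none by edgeR or DESeq2. Against CD4+ cells none passed in limma either, where 1.95% of 12175 genes did (0.682% higher and 1.26% lower in DP cells), but Tet3 was lower without overlap (11.2% of all genes had none), at a log2 difference of -0.68 (SE 0.17, unadjusted p = 0.00274, limma adjusted p = 0.0829). It passed with DESeq2 (adjusted p = 0.000160), in the joint limma fit (adjusted p = 0.00215) and without KO DP animal 1 (limma adjusted p = 0.0291), and not with edgeR (adjusted p = 0.108). With the animal as a block no member passed, where 7.06% of genes did and 4.41% were lower in DP cells. Without KO DP animal 3 the difference was -0.56 (limma adjusted p = 0.0994). The 237 genes called became 84 to 279 with 1 library left out. KO DP animal 3 also moved other values: the difference of Tet2 between DP and CD8+ cells was -0.71 with it and -0.34 without it, and that of Dnmt3a was -0.56 and -0.31. Between DP and CD4+ cells, Dnmt3a was at -0.53 with it and -0.29 without it, and Tet2 at -0.46 and -0.09. None of these passed.

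The test of whether the KO effect differs between CD4+ and CD8+ cells called none of the 9 genes in limma, where 0.0161% of 12446 genes passed, and none by edgeR or DESeq2. At an unadjusted p under 0.05 there were 3, Dnmt3a, Dnmt3b and Tet1, as given above.

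The genes that work with these 9 were followed in 9 lists. Among partners of de novo methylation, such as histone methyltransferases whose marks guide the enzymes, 1 of 9 genes tested was higher in KO CD4+ cells (8.59% of all genes) and in CD8+ cells 2 were higher and 1 lower (12.6% and 12.5% of all genes). Daxx, a histone chaperone, rose in CD4+ cells (log2 difference 0.37, limma adjusted p = 0.0134). In CD8+ cells Setdb1, an H3K9 methyltransferase, fell by 0.27 on the log2 scale (limma adjusted p = 0.0179, lost with DESeq2 at 0.0885), and Nsd1 and Setd2, H3K36 methyltransferases, rose by 0.34 and 0.33 (limma adjusted p = 0.0247 and 0.0264), both lost with DESeq2 (adjusted p = 0.148 and 0.246). With each of 8 libraries left out in turn, the calls of Setdb1, Nsd1 and Setd2 were kept in 5, 4 and 3 of the fits. The median of the list was -0.01 in CD4+ and 0.04 in CD8+ cells.

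Of 10 maintenance partners, 2 were lower in KO CD4+ cells (9.77% of all genes were), and in CD8+ cells 1 was lower and 1 higher (12.5% and 12.6% of all genes), with medians of -0.30 and -0.34. Uhrf2, the paralog of Uhrf1, fell in both subsets, from a mean of 5416 to 3158 in CD4+ (log2 difference -0.83, limma adjusted p = 0.0186) and from 5300.0 to 3038 in CD8+ cells (-0.84, limma adjusted p = 0.00548). Hells, a chromatin remodeler that aids methylation, fell in CD4+ cells (-0.94, limma adjusted p = 0.0361, lost with edgeR at 0.0545), and Usp7, a deubiquitinase that binds DNMT1 and UHRF1, rose in CD8+ cells (0.24, limma adjusted p = 0.0208, lost with DESeq2 at 0.238). Without WT CD4+ animal 3 or 6 the CD4+ call of Uhrf2 was lost (limma adjusted p = 0.0550 and 0.0658), and Hells and Usp7 were kept in 3 and 5 of 8 such fits.

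Of 7 other methyl-CpG readers, 1 was lower in CD4+ and 2 in CD8+ KO cells, where 9.77% and 12.5% of all genes were. Mbd6, a member of the MBD family, fell in both (log2 difference -0.83, limma adjusted p = 0.00721, and -0.94, limma adjusted p = 0.000479). Mbd4, a reader that is also a glycosylase, was at -0.45 in CD4+ (limma adjusted p = 0.149) and fell by 0.66 on the log2 scale in CD8+ cells (limma adjusted p = 0.0279, lost with DESeq2 at 0.0794 and kept in 3 of 8 fits with a library left out). None of the 7 was higher in KO cells past the threshold in either subset.

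Of 11 NuRD subunits, the complex that MBD2 recruits, 1 was higher and 1 lower in KO CD4+ cells, and 3 were higher and 1 lower in CD8+ cells. Over all genes 8.59% were higher and 9.77% lower in CD4+ and 12.6% and 12.5% in CD8+ cells. The remodeler Chd3 fell in both (log2 difference -0.55, limma adjusted p = 0.0145, and -0.45, limma adjusted p = 0.00334). Mta3 rose in both (0.30, limma adjusted p = 0.0386, and 0.46, limma adjusted p = 0.00673), the former lost on the 75th percentile scale (adjusted p = 0.146). Chd4, the other main remodeler of the complex, rose by 0.38 (limma adjusted p = 0.0227) and Mta2 by 0.20 (limma adjusted p = 0.0362) in CD8+ cells, both lost under quantile normalization (adjusted p = 0.161 and 0.327). Chd3 in CD4+ cells was lost without WT CD4+ animal 6 (limma adjusted p = 0.0512), and Mta3 in CD4+ cells was kept in 2 of 8 fits with a library left out, Chd4 in 4 and Mta2 in 3.

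TET enzymes need 2-oxoglutarate, and 14 genes of its metabolism and of TET recruitment were tested. In CD4+ cells 2 rose and 2 fell, and in CD8+ cells 2 rose and 1 fell, where 8.59% and 9.77% of all genes did in CD4+ and 12.6% and 12.5% in CD8+ cells. Idh2, the mitochondrial isocitrate dehydrogenase that makes 2-oxoglutarate, rose in both subsets (log2 difference 0.74, SE 0.10, limma adjusted p = 0.00337, and 1.31, SE 0.14, limma adjusted p = 0.000654), as did Glud1, glutamate dehydrogenase (0.32, limma adjusted p = 0.0311, lost on the 75th percentile scale at 0.114, and 0.44, limma adjusted p = 0.00417). Gadd45b, a stress protein linked to demethylation, fell in both (-0.62, limma adjusted p = 0.0322, and -0.51, limma adjusted p = 0.0364), lost with DESeq2 (adjusted p = 0.112 and 0.198). With a library left out, Gadd45b was kept in 5 of 8 fits in CD4+ and 2 of 8 in CD8+ cells, and Glud1 in 4 of 8 in CD4+ cells.

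Base excision repair completes the removal of oxidized methylcytosine. Of 14 genes 1 was lower in KO CD4+ and 5 in KO CD8+ cells, and none was higher, with medians of -0.12 and -0.35. The scaffold protein gene Xrcc1 fell in both (log2 difference -0.44, limma adjusted p = 0.0226, and -0.55, limma adjusted p = 0.00403). In CD8+ cells Polb, the repair polymerase, fell by 0.67 (limma adjusted p = 0.00755) and the glycosylase gene Neil3 by 0.87 (limma adjusted p = 0.0382, lost with DESeq2 at 0.0605). Xrcc1 in CD4+ cells was kept in 5 of 8 fits with a library left out and Neil3 in 4. Background shares of lower genes were 9.77% in CD4+ and 12.5% in CD8+ cells.

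Methylation also needs S-adenosylmethionine. Of 16 genes of the methyl donor cycle 1 rose in KO CD4+ cells, and in CD8+ cells 2 rose and 2 fell, beside the shares of all genes (8.59% higher in CD4+, 12.6% higher and 12.5% lower in CD8+ cells). Ahcy, which clears the inhibitory product S-adenosylhomocysteine, rose in CD4+ cells (log2 difference 0.40, limma adjusted p = 0.0145) and was at 0.33 in CD8+ cells (limma adjusted p = 0.0646). Its homolog Ahcyl1 fell in CD8+ cells (-0.33, limma adjusted p = 0.00882), as did Mtrr, methionine synthase reductase (-0.51, limma adjusted p = 0.0271). Ahcy in CD4+ cells was lost without WT CD4+ animal 6 (limma adjusted p = 0.0538), and Mtrr was kept in 3 of 8 fits with a library left out.

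None of the 19 replication genes passed between KO and WT CD4+ cells in limma, with 2 at an unadjusted p under 0.05 and none by edgeR or DESeq2. In CD8+ cells 1 did, the primase gene Prim1, which fell by 0.74 on the log2 scale (limma adjusted p = 0.0249, kept in 3 of 8 fits with a library left out). None of the 15 mitosis genes passed in either subset, with none at an unadjusted p under 0.05 and none by edgeR or DESeq2. Their medians were -0.32 and -0.31 for replication and -0.40 and -0.58 for mitosis in CD4+ and CD8+ cells.

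**Figure D5:**
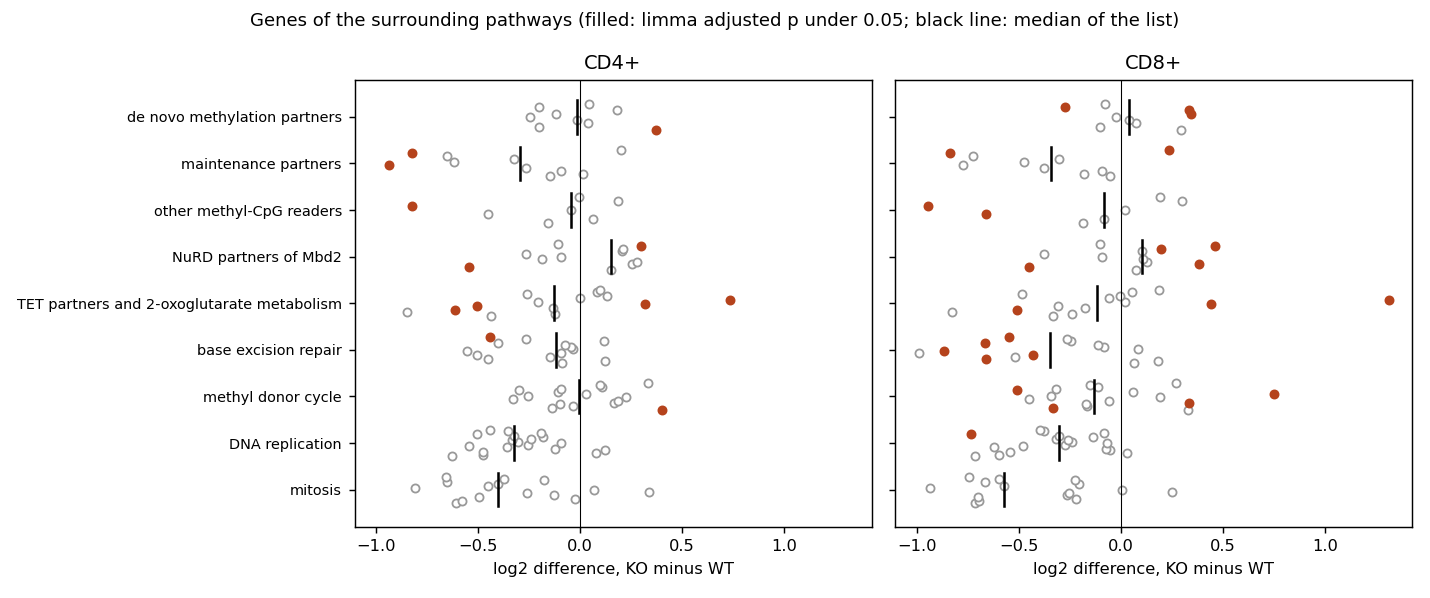
Log2 differences between KO and WT for genes of 9 pathway lists in CD4+ (left) and CD8+ cells (right). Each point is a gene, filled where the limma adjusted p was under 0.05, and the black line is the median of the list. Idh2, at 1.31, is the highest point in CD8+ cells, and the replication and mitosis genes lie mostly below 0.

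Genes with the most similar pattern were ranked by Pearson correlation of log2 levels over the 20 libraries, among 10709 genes with a mean of at least 50 normalized counts. The libraries share animals and scaling, and values are descriptions. The ranking rests in part on KO DP animal 3: over the other 19 libraries 7 of the 27 genes named here were still among the 3 closest to their member. Dnmt3a was closest to Ptpn23 (0.966), Nfat5 (0.964) and Atxn2l (0.959), Dnmt3b to Mgat4b (0.949), E130309D02Rik (0.941) and Entpd4 (0.937), and Mbd2 to Dazap2 (0.977), Snx4 (0.970) and Def6 (0.969). Dnmt1 was closest to Pole (0.980), the catalytic subunit of a replicative polymerase, Arhgap11a (0.972) and Atad5 (0.969), and Uhrf1 to Lmnb1 (0.982), Cdc6 (0.981) and Mcm2 (0.978), of which Cdc6 and Mcm2 license replication origins. Tet2 was closest to Tsc1 (0.959), Zbed6 (0.957) and Srcap (0.955), and Tet3 to Kdm7a (0.959), Parp14 (0.938) and Traf3 (0.934). Values were lower for the genes with the lowest counts. Tet1 was closest to Senp6 (0.839), Tagap (0.811) and Ube4b (0.801), and Tdg to Abcf1 (0.766), Flii (0.759) and Pacsin2 (0.756).

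Among the members themselves the pattern within groups differed from that across groups. Dnmt3a and Dnmt3b correlated at -0.74 over the 20 libraries, where KO and WT lie at opposite ends, and at 0.85 once the group means were removed, or 0.60 over the 19 libraries without KO DP animal 3. Tet2 and Tet3 correlated at 0.71 over all libraries and at 0.77 with group means removed (0.65 without that library). With group means removed and without that library, Dnmt3a and Dnmt3b both ran against the replication sum (-0.72 and -0.69). These values describe how the libraries differ and share depth, animals and scaling factors.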

How the data were processed

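RNA was measured in 20 libraries, 4 in each of 5 groups taken from the genotype, subset and number in the labels. The authors aligned strand-specific, poly(A)-selected 47-base read pairs to mm10 with STAR (2.7.2b per the submitters' notes), counted pairs on UCSC gene exons and divided the counts by DESeq2 size factors. The deposited table holds this signal (normalized counts) for 17101 genes, and multiplying by the recovered factors gave whole reads for 100% of values (tolerance 1e-06). Comparisons used limma 3.58.1 in R 4.3.3 with trended variances, on values log2(normalized count + 1), which understates changes of low genes, for genes with a mean of at least 10, 2-sided, with Benjamini-Hochberg adjustment over all genes tested and a threshold of 0.05. The script was tested on simulated data in which KO and WT had the same spread. The wider KO spread seen for most members was thus not covered. Precision is set by 4 libraries per group, and p-values measure the spread between these libraries. Alternatives were a pseudocount of 10, no filter, quantile and 75th percentile scaling, edgeR 4.0.16 and DESeq2 1.42.0 on whole reads, a joint fit, a block for the replicate number, and leaving out 1 library at a time. Group order and similar genes without KO DP animal 3 were added after seeing the data. Libraries with equal numbers within a genotype deviated together (correlations 0.376 to 0.707 in KO and 0.224 to 0.311 in WT, against at most 0.171 for unequal numbers), so numbers pair the subsets of a genotype. Named were all 9 members, up to 4 genes per list with the lowest adjusted p among those past the threshold in either KO and WT comparison, and the 3 genes most like each member. Some list genes that met this rule are counted but not reported here. Start windows are from RefSeq on GRCm38.p6 and are given for 8 of the 9 members, with Mbd2 left out. The members, lists and tests were chosen with earlier results of these data known.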

Additional observations from a re-analysis of the deposited data

Results flagged for a closer look

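Of 45 sets of 4 libraries, 9 genes in 5 groups, 4 had 1 library far from the other 3 by Dixon's test at the 95% level, and chance flags about 1 in 20 such sets. Dnmt3a in KO CD4+ cells was at 1385 in animal 4 against 1628 to 1658 in the others. Uhrf1 in WT CD8+ cells was at 14103 in animal 2 against 13267 to 13396. Tet1 in KO DP cells was at 72.9 in animal 4 against 15.7 to 24.8, and Tet1 in WT CD4+ cells was at 125 in animal 5 against 60.2 to 65.1. Without the last library the difference of Tet1 between WT subsets was no longer called (limma adjusted p = 0.0558). Without KO CD4+ animal 4 the Dnmt3a difference in CD4+ cells was -1.58.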

How the results depend on the processing

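KO and WT libraries share only the numbers 2 and 3 and come from different donors. With that replicate block, which leaves 1 residual degree of freedom, 1 member passed in each KO and WT comparison, Dnmt3a, and the differences of Dnmt1, Uhrf1 and Mbd4 were 0.0258, 0.0525 and 0.0391 in CD4+ and those of Dnmt1, Uhrf1 and Tet3 0.0734, 0.293 and -0.0808 in CD8+ cells. In KO cells the block called 2 members between CD4+ and CD8+, given above, and it changed no other member call within a genotype. DESeq2 and the joint fit called 2 members between WT subsets and 1 between DP and CD4+ cells. Leaving out 1 library gave 3 to 5 members in KO and WT CD4+ cells (5 without KO animal 2, 3 without WT animal 6) and 0 to 1 between DP and CD4+ cells. Calls over all genes moved by over 1.5 times between KO and WT CD4+ cells (2274) without KO animal 1 (1352) or WT animal 2, 3, 5 or 6 (1106, 976, 1025 and 628), between KO and WT CD8+ cells (3118) without WT animal 2, 3, 5 or 6 (1753, 1712, 1711 and 1633), between KO CD4+ and CD8+ cells (514) without CD4+ animal 1, 3 or 4 (303, 233 and 267) or CD8+ animal 2 (278), and between DP and CD4+ cells (237) without CD4+ animal 1, 2, 3 or 4 (115, 122, 84 and 95) or DP animal 2 (110). For the difference in KO effect between subsets they ran from 0 to 5, beside 2. On the 75th percentile scale the KO and WT difference of Tet3 in CD8+ cells was at -0.0110. Between DP and CD8+ cells Uhrf1, Mbd2 and Tdg were at -0.0319, -0.0479 and -0.0488 on that scale and at -0.00899, -0.0162 and -0.00679 under quantile normalization, Uhrf1 and Mbd2 were at -0.0376 and -0.00259 with edgeR, and Uhrf1 was at -0.0258 with DESeq2. None of these sign changes passed the threshold, and the cause was not tested.

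With 1 library left out, differences that changed sign ranged as follows. Between KO CD4+ and CD8+ cells they ran from -0.13 to 0.0878 for Dnmt3a, -0.40 to 0.17 for Tet1, -0.19 to 0.00741 for Mbd2 and -0.29 to 0.0573 for Tdg. Between DP and CD8+ cells they ran from -0.19 to 0.15 for Dnmt3b, -0.34 to 0.28 for Uhrf1, -0.10 to 0.10 for Mbd2 and -0.21 to 0.35 for Tdg, and between DP and CD4+ cells from -0.0516 to 0.50 for Tdg. Between KO and WT they ran from -0.42 to 0.13 for Uhrf1 in CD8+ cells. The difference in KO effect between subsets ran from -0.20 to 0.19 for Dnmt1, -0.49 to 0.10 for Uhrf1, -0.10 to 0.10 for Mbd2 and -0.0645 to 0.28 for Tdg.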
